A study of Mus musculus with 48 samples.

Results

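The genes described here carry the interferon signal from the cell surface to the nucleus. They are Ifnar1 and Ifnar2, which pair as the receptor for the type I interferons; Ifngr1 and Ifngr2, which form the receptor for interferon gamma; the receptor-bound kinases Jak1, Jak2 and Tyk2; Stat2, a transcription factor that these kinases phosphorylate; and Socs1, an inhibitor of the kinases. They were taken by name as 9 of the 36854 genes in the count table. RNA was sequenced from 48 mouse sarcomas in 8 groups, 32 primary tumours and 16 allografts. Primary tumours arose in p53FL/FL mice of strain 129/SvJae, aged 6 to 10 weeks, after Adeno-Cre was injected into the gastrocnemius muscle, followed by 300 µg of the carcinogen MCA. Allografts came from 1 tumour cell line, 402230, of which 50000 cells were placed in the gastrocnemius of syngeneic animals. At about 150 mm3 each mouse received 200 µg of muDX400, an antibody against the checkpoint receptor PD-1, or an isotype control antibody, and the hind limb then received 0 or 20 Gy. Tumours were collected 3 days later. The 4 treatment combinations had 8 primary tumours and 4 allografts each. The primary tumours carry the p53 deletion whatever their treatment, untreated controls included, and every tumour is a mixture of sarcoma cells with the host's immune, vascular and muscle cells.

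Type I interferons bind IFNAR1 and IFNAR2, which carry TYK2 and JAK1. These kinases phosphorylate STAT2, which acts in a complex with IRF9 that binds the interferon-stimulated response element (ISRE) in genes such as Ifit1, Mx1 and the Oas family. Interferon gamma, made by T cells and NK cells, binds IFNGR1 and IFNGR2, which carry JAK1 and JAK2, and its signal reaches genes through the gamma-activated site (GAS). SOCS1 is itself an interferon target and closes a feedback loop by blocking the kinases. Stat2 is likewise an interferon target, whereas the receptors are generally regarded as constitutively expressed.

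The promoters below are shown because they hold letters of these 2 elements and belong to members whose levels can be set against them. All 9 members matched a RefSeq promoter of build GRCm38.p6, from 250 bases before to 50 bases after the gene's start. Each was searched on both strands for the ISRE letters TTTCNNTTTC (reverse GAAANNGAAA) and the GAS letters TTCNNNGAA, which read the same on both strands. Capitals mark the matches. Stat2 lies at chr10:128270248-128270547 on the plus strand, Socs1 at chr16:10785487-10785786 on the minus strand, Ifnar2 at chr16:91372533-91372832 and Ifnar1 at chr16:91484965-91485264, both on the plus strand.
Stat2: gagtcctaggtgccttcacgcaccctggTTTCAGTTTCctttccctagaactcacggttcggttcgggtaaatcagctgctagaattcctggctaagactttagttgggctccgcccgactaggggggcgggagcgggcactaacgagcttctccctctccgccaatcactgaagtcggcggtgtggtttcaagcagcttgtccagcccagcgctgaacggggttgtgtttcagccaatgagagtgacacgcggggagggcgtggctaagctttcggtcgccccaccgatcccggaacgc
Socs1: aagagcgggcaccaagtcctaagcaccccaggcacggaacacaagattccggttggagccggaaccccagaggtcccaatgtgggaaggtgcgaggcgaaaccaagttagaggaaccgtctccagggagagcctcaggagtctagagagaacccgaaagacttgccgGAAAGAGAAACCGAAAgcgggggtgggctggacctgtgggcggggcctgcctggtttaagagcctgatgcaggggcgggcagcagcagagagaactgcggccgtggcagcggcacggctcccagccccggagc
Ifnar2: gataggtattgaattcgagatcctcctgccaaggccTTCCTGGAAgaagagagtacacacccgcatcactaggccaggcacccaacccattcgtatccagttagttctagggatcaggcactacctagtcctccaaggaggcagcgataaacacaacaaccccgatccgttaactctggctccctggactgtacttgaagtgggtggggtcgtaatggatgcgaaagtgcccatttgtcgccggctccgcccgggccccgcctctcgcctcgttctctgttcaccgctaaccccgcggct
Ifnar1: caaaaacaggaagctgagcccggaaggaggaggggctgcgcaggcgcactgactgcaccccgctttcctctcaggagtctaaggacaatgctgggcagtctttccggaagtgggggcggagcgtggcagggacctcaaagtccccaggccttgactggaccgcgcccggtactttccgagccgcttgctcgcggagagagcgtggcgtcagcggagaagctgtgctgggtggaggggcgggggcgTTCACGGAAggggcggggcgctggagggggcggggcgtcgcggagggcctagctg
Distances here are counted from the start in the RefSeq table. For Stat2 and Ifnar1 that start lies upstream of the GENCODE gene start given below, and the whole Stat2 window does. In Stat2 the ISRE letters TTTCAGTTTC began 222 bases before the start. In Socs1, GAAAGAGAAA began 83 bases and GAAACCGAAA began 77 bases before it, and these matches overlap by 4 letters. In Ifnar2 the GAS letters TTCCTGGAA began 214 bases before the start, and in Ifnar1 TTCACGGAA began 5 bases before it. The windows of Ifngr1, Ifngr2, Jak1, Jak2 and Tyk2 held neither set of letters. Over all 32851 promoters of the table, 3.44% held the ISRE letters and 8.30% the GAS letters, so a match is a description of the sequence and not of binding. On the annotated genome (GENCODE M21, build mm10), Ifnar2 (chr16:91372783-91405589), Ifnar1 (chr16:91485238-91507441) and Ifngr2 (chr16:91547072-91565623) lie on the plus strand of chromosome 16 in that order, with Il10rb, a receptor chain for interleukin 10 and interferon lambda, between Ifnar2 and Ifnar1. The kinases lie apart, Jak1 at chr4:101152367-101265282, Jak2 at chr19:29251828-29313080 and Tyk2 at chr9:21104068-21131243, and Ifngr1 lies at chr10:19591949-19610229. The gene bodies of Stat2 and Socs1 span chr10:128270559-128292849 and chr16:10782240-10785536.

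Libraries held between 31.8 and 54 M counted reads (median 41.2 M). Levels are given as CPM, counts scaled to library size, after TMM scaling, which corrects for composition. The 8 mesenchymal markers, as a sarcoma should show, were above 1 CPM in every tumour (summed 4253 to 61432 CPM). Summed skeletal muscle markers ranged from 13.3 to 82044 CPM, and 4 tumours exceeded 20000 CPM, namely 1 unirradiated allograft under isotype, 1 irradiated primary tumour under isotype and 2 under anti-PD-1. Trp53 was counted at 20.2 to 60.7 CPM, but reads over the whole gene, host cells included, do not test the deletion. Among allografts, Xist, a transcript of female cells, exceeded 10 CPM in 1 of 4 tumours in each unirradiated group and in 3 of 4 in each irradiated group. Tumour identifiers beginning with 5 made up all 4 allografts of the 0 Gy isotype group, 3 of 4 under 0 Gy with anti-PD-1, 1 of 4 under 20 Gy with isotype and 3 of 4 under 20 Gy with anti-PD-1. What that digit stands for is not given in the sources used here.

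All 9 members were expressed in every tumour and passed the filter on low counts in every fit. Divided by the length of each gene's exons, so that genes can be compared, the unirradiated isotype tumours held most Ifngr1 (50.3 ± 8.96 CPM per kb in allografts, n = 4, and 44.4 ± 7.09 in primary tumours, n = 8; mean ± SD here and below). Jak1 (25.5 ± 5.37 and 29.7 ± 1.97), Ifngr2 (28.1 ± 2.13 and 28.2 ± 5.63) and Ifnar1 (21.2 ± 1.47 and 23.2 ± 3.46 CPM per kb) came next. In the allografts Jak1 overlapped both Ifngr2 and Ifnar1 within 1 SD, while those 2 did not overlap each other; in the primary tumours Ifngr2 overlapped both, and Jak1 and Ifnar1 did not overlap. Ifnar2 stood at 17.7 ± 1.36 and 15.4 ± 2.39, Stat2 at 12.02 ± 5.31 and 14.1 ± 9.39, and Jak2 at 11.2 ± 1.20 and 11.03 ± 1.73 CPM per kb. Tyk2 (7.23 ± 1.38 and 6.14 ± 0.628) and Socs1 (9.83 ± 3.09 and 5.92 ± 1.98 CPM per kb) were the lowest of the 9. After 20 Gy under isotype, Stat2 stood at 36.7 ± 2.35 CPM per kb in allografts and 46.5 ± 7.82 in primary tumours. In the primary tumours this was within 1 SD of Ifngr1 (51.9 ± 15.96), whereas in the allografts it lay below Ifngr1 (55.9 ± 13.4) and closer to Ifngr2 (32.8 ± 2.49 CPM per kb).

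**Figure D1:**
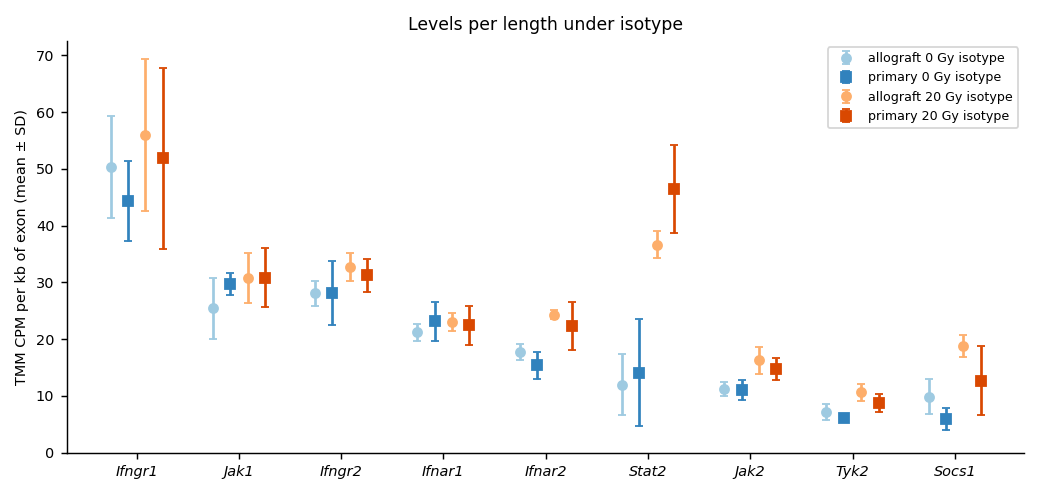
Level of each member per kilobase of exon (CPM per kb, mean ± SD, 4 allografts or 8 primary tumours per point) under isotype at 0 and 20 Gy. Stat2 stands between 12.02 and 14.1 CPM per kb without radiation and between 36.7 and 46.5 after it, while Ifngr1 is the highest member at 0 Gy in both tumour kinds.

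The first question the design poses is how 20 Gy changed these genes 3 days later. Stat2 rose about 3-fold in both tumour kinds under isotype, with Ifnar2, Socs1, Jak2 and Tyk2 rising by smaller amounts in some or most comparisons, and Ifnar1, Ifngr1 and Ifngr2 were called in none. Under isotype, 2 of 9 members rose in the allografts (Stat2 and Ifnar2), where 4.40% of all genes tested were called higher, and 5 of 9 rose in the primary tumours (Stat2, Socs1, Ifnar2, Tyk2 and Jak2), against 7.85% of all genes. Under anti-PD-1, 1 of 9 rose in the allografts (Ifnar2), against 3.13%, and 5 of 9 in the primary tumours (Stat2, Jak2, Tyk2, Jak1 and Socs1), against 6.06%. No member fell in any of these 4 comparisons. The members' median log2 change was 0.48 and 0.33 in allografts and 0.44 and 0.33 in primary tumours (isotype and anti-PD-1), where the median of all genes tested lay between −0.020 and 0.020. In whole tumours, a change in the number of cells of a type and a change in RNA per cell cannot be told apart. Calls are at an adjusted p under 0.05 in edgeR's quasi-likelihood test, with Benjamini-Hochberg adjustment over all genes tested.

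**Figure D2:**
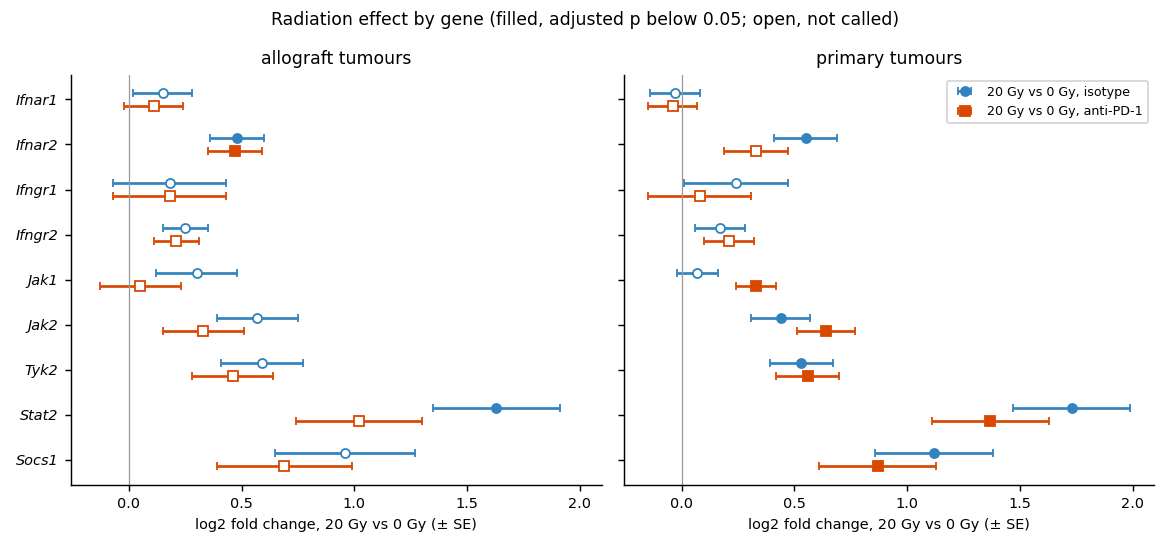
Log2 change of each member after 20 Gy against 0 Gy (edgeR estimate ± SE) in allografts (4 against 4) and primary tumours (8 against 8), in each antibody arm; filled points were called at an adjusted p under 0.05. Stat2 has the largest estimate in each of the 4 comparisons (1.02 to 1.73), and Ifnar1 lies between −0.04 and 0.15.

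The ligands come first in the pathway and were scarce in these libraries. Of 21 interferon genes listed, 14 were in the count table (the other 7 were not analysed here), and only Ifnb1 (interferon beta) and Ifng (interferon gamma) had enough counts to be tested. The other 12 stood at 0 in 22 to 47 of the 48 tumours and never passed 0.386 CPM; a count of 0 allows a level of up to 0.0536 to 0.101 CPM, from 3 counts per library, which covers counting error only. Ifnb1, chosen for mention after its values were seen, was at 0 in 3 tumours and reached at most 2.26 CPM. It averaged 0.126 ± 0.0163 CPM in unirradiated isotype allografts (n = 4) and 0.904 ± 0.915 after 20 Gy (n = 4), with a log2 change of 2.83 ± 0.72 (SE; edgeR adjusted p = 0.0329). The irradiated group had a median of 0.515 CPM, and its highest tumour, at 2.26 CPM, raised the mean. Under anti-PD-1 Ifnb1 averaged 0.0875 ± 0.0455 and 0.783 ± 0.655 CPM in allografts (log2 change 3.14 ± 0.74, edgeR adjusted p = 0.0302). Both allograft calls start from a level of a few reads per library. In primary tumours Ifnb1 was called higher under isotype, from 0.111 ± 0.189 to 0.644 ± 0.377 CPM (n = 8 each, log2 change 2.53 ± 0.72, edgeR adjusted p = 0.0171), and under anti-PD-1 its estimate of 1.74 ± 0.73 missed the threshold (edgeR adjusted p = 0.146). Ifnb1 passed the filter on low counts in fits that held irradiated tumours, but not in the fits of unirradiated tumours only. It thus entered the dose tests through the groups where it was high, and its changes are given as a description. Ifng, named as the ligand of the gamma receptor although it was too scarce for the rule that selects named genes, was not called in the 4 dose comparisons, with log2 changes of 0.92 ± 0.55 and 0.43 ± 0.54 in allografts and 2.29 ± 0.82 and 1.71 ± 0.79 in primary tumours (edgeR adjusted p = 0.413, 0.714, 0.0586 and 0.183, isotype before anti-PD-1).

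Of the type I receptor chains, Ifnar2 rose after radiation while Ifnar1 was not called. In isotype allografts Ifnar2 stood at 56.3, 59.5, 65.1 and 54.9 CPM without radiation and at 79.4, 81.5, 84.7 and 78.4 CPM after 20 Gy. All 4 irradiated tumours lay above all 4 controls, with a log2 change of 0.48 ± 0.12 (edgeR adjusted p = 0.0266). In anti-PD-1 allografts the values were 66.8, 58.2, 72.2 and 50.2 CPM at 0 Gy and 83.2, 92.4, 83.7 and 79.6 CPM at 20 Gy. These groups did not overlap either, and Ifnar2 rose by 0.47 ± 0.12 on the log2 scale (edgeR adjusted p = 0.0367). The allograft calls are close to the threshold, since leaving out single tumours gave adjusted p-values of 0.0171 to 0.115 under isotype and 0.0171 to 0.139 under anti-PD-1 (edgeR), with log2 changes of 0.44 to 0.54 under isotype. Both calls were also lost with Xist as a covariate (edgeR adjusted p = 0.0585 and 0.0658) and the isotype call with the identifier digit as one (0.107). They were lost as well with no filter on low counts (0.0673 and 0.0793) and with all 48 tumours in the fit (0.195 and 0.198), and the anti-PD-1 call with only the 2 groups fitted (0.230). The isotype call was lost without 0 Gy replicate 1, 2 or 4 or 20 Gy replicate 2, 3 or 4, and the anti-PD-1 call without 0 Gy replicate 2 or 4 or 20 Gy replicate 1, 2 or 3. In isotype primary tumours Ifnar2 ranged from 39.8 to 62.4 CPM (median 50.8) at 0 Gy and from 46.8 to 93.1 CPM (median 77.6) at 20 Gy. There 7 of the 8 exceeded every control, and the log2 change was 0.55 ± 0.14 (edgeR adjusted p = 0.00647). In anti-PD-1 primary tumours the ranges, 47.2 to 72.5 CPM (median 59.7) and 50.8 to 98.9 CPM (median 72.8), overlapped more, with 4 of 8 above the highest control and an estimate of 0.33 ± 0.14 that was not called (edgeR adjusted p = 0.131). Ifnar2 overlaps another gene model, Gm21970, on the same strand. Gm21970 is not among the genes of the count table, and how reads in the overlap were counted is uncertain.

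Ptprc and the markers of some leukocytes moved with Ifnar2. Ptprc, which encodes the pan-leukocyte protein CD45, ranged from 95.4 to 222 CPM in unirradiated and from 310 to 508 CPM in irradiated isotype allografts, with medians of 80.7 and 162 CPM in the corresponding primary tumours. The summed level of 8 macrophage markers was 1697 to 2542 CPM in unirradiated isotype allografts and 3030 to 4900 CPM in irradiated ones, and 1759 to 3528 and 2199 to 4464 CPM in the primary tumours. The sum of 7 neutrophil and monocyte markers went from 184 to 397 CPM to 446 to 650 CPM in isotype allografts, and from 62.6 to 244 to 133.5 to 985 CPM in isotype primary tumours. None of these 16 genes was at 0 throughout the tumours. The sum of 4 NK cell markers went from 9.87 to 29.5 CPM to 36.0 to 56.0 CPM in isotype allografts, whereas the sums of 8 T cell markers (53.7 to 115.5 and 65.2 to 132.5 CPM), 5 dendritic cell markers (13.7 to 23.9 and 15.8 to 25.2 CPM) and 4 B cell markers (1.98 to 6.21 and 3.42 to 5.65 CPM) overlapped between doses there. The part of these cells in the higher Ifnar2 was not tested.

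Ifnar1 did not separate by dose. In the 16 allografts it lay between 113.9 and 160.6 CPM, with medians of 127.4 (0 Gy isotype), 132.4 (0 Gy anti-PD-1), 133.6 (20 Gy isotype) and 141.4 CPM (20 Gy anti-PD-1). In primary tumours the medians were 141.6, 154.4, 129.8 and 145 CPM in the same order, within a range of 105.4 to 196.2 CPM. Irradiated and control tumours overlapped in every arm, and the log2 changes were 0.15 ± 0.13, 0.11 ± 0.13, −0.03 ± 0.11 and −0.04 ± 0.11 (edgeR adjusted p = 0.621, 0.699, 0.894 and 0.871). No neighbours in the order of the 8 group means, from 125.9 to 152.4 CPM, differed by more than their pooled SD. Ifnar2 was called in some dose comparisons and Ifnar1 in none, but a difference between the chains was not tested. Their count ratio was computed as a description, a choice made after the values were seen. The median ratio of Ifnar2 to Ifnar1 counts was 0.475 and 0.458 in unirradiated allografts and 0.602 and 0.622 in irradiated ones, and 0.361 and 0.367 against 0.558 and 0.493 in primary tumours (isotype and anti-PD-1). The ranges did not overlap between doses in isotype allografts (0.441 to 0.483 and 0.519 to 0.646). They overlapped in anti-PD-1 allografts (0.397 to 0.569 and 0.496 to 0.686) and in both primary arms.

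The interferon gamma receptor chains were not called after radiation in either tumour kind. Ifngr2 stood at 101.2, 114.1, 110.7 and 96.9 CPM in unirradiated isotype allografts and 134.3, 114.8, 116.4 and 128.1 CPM after 20 Gy. These values did not overlap, but the estimate of 0.25 ± 0.10 missed the threshold (edgeR adjusted p = 0.215). The other 3 dose comparisons gave log2 changes of 0.17 to 0.21 (edgeR adjusted p = 0.218 to 0.309), and its primary values lay between 74.85 and 137.9 CPM over the 4 groups. Ifngr1, the ligand-binding chain, varied widely among tumours of one group. Its values ran from 123.4 to 180.7, 108.6 to 204.1, 128.4 to 212.2 and 142.8 to 296.9 CPM in the 4 allograft groups, and from 97.14 to 152.1, 116.2 to 233.1, 81.41 to 239.7 and 77.5 to 305.8 CPM in the primary groups, in the order used for Ifnar1. Log2 changes of 0.08 to 0.24, each with an SE of 0.23 to 0.25, lay within that spread (edgeR adjusted p = 0.507 to 0.878). Neighbouring group means of Ifngr1 (126.3 to 190.6 CPM) and of Ifngr2 (105.7 to 127.7 CPM) did not differ beyond their pooled SD.

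**Figure D3:**
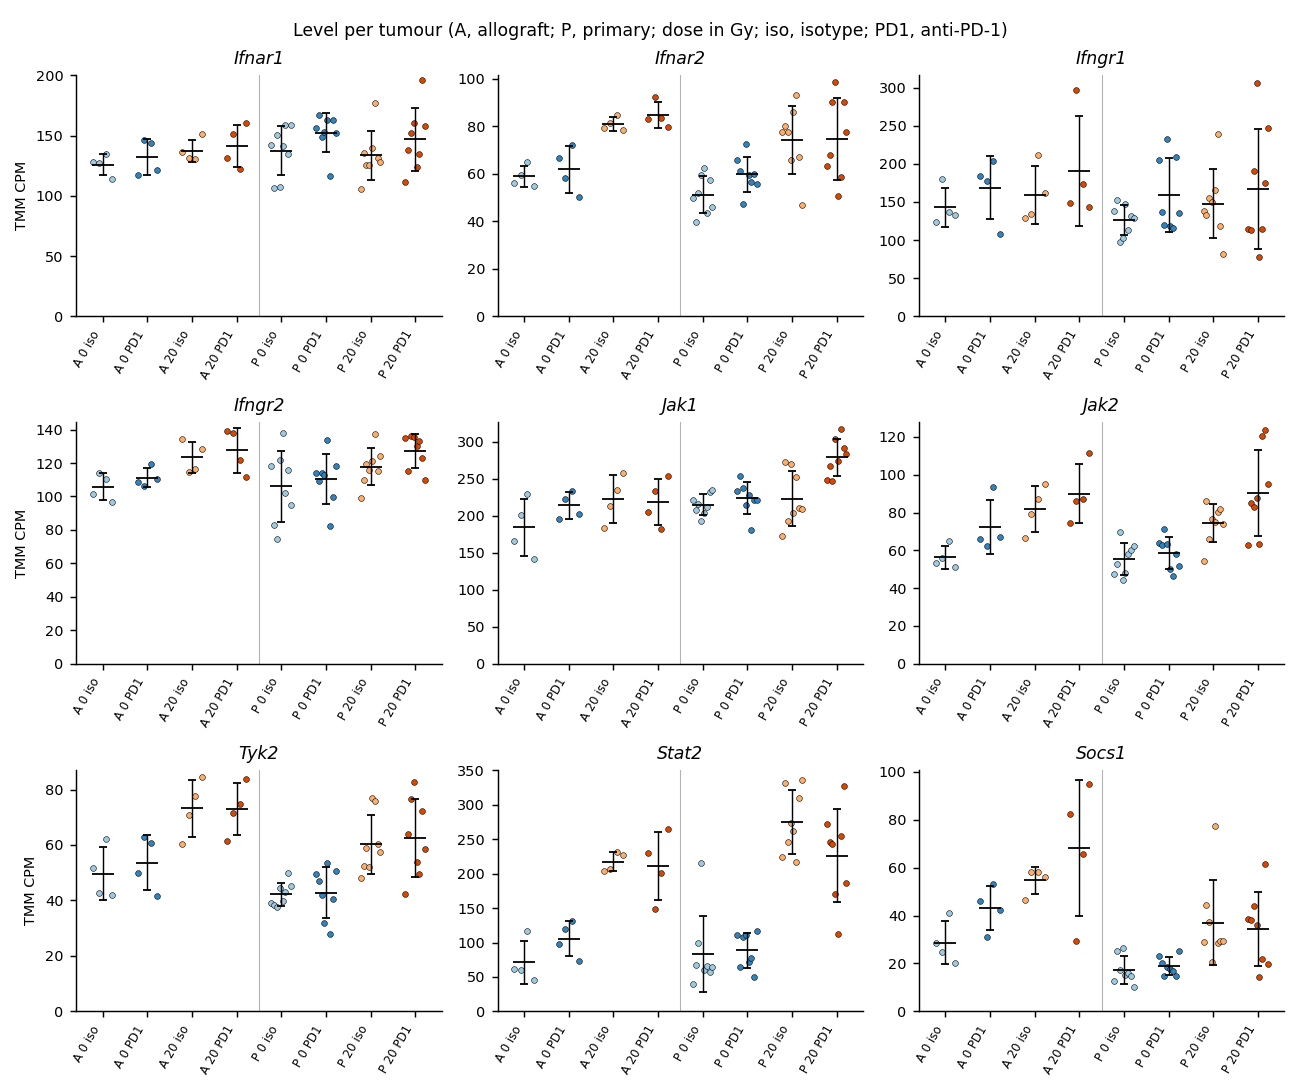
Level of each member (TMM-scaled CPM) in every tumour of the 8 groups, with the group mean ± SD (4 allografts or 8 primary tumours per group). Stat2 is at 204 to 336 CPM in all irradiated isotype tumours and at 40.2 to 215 CPM in the unirradiated isotype tumours, whereas the Ifnar1 values of all groups lie between 105.4 and 196.2 CPM.

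Among the kinases, Jak2 and Tyk2 rose in irradiated primary tumours in both arms. Jak2, which serves the interferon gamma receptor, ranged from 44.6 to 69.9 CPM (median 55.6) in isotype controls and from 54.6 to 86.0 CPM (median 76.0) after 20 Gy, and 6 of 8 exceeded every control. Its log2 change was 0.44 ± 0.13 (edgeR adjusted p = 0.0238). Under anti-PD-1 the range was 46.2 to 71.4 CPM (median 60.3) at 0 Gy and 63.0 to 123.9 CPM (median 86.3) at 20 Gy, again with 6 of 8 above the controls, and Jak2 rose by 0.64 ± 0.13 (edgeR adjusted p = 0.00329). The isotype call was lost when genes with low counts were kept in the test (edgeR adjusted p = 0.0573). In isotype allografts Jak2 stood at 53.2, 56.1, 64.8 and 51.0 CPM at 0 Gy and 66.7, 79.2, 87.1 and 94.9 CPM at 20 Gy. These groups did not overlap, yet the estimate of 0.57 ± 0.18 was not called (edgeR adjusted p = 0.0787), though DESeq2 called it (adjusted p = 0.0445). In the anti-PD-1 allografts 66.2, 62.3, 93.3 and 67.3 CPM faced 74.7, 86.3, 87.4 and 111.6 CPM, with an estimate of 0.33 ± 0.18 (edgeR adjusted p = 0.314).

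Tyk2, the kinase carried by IFNAR1, ranged from 37.5 to 49.98 CPM (median 41.3) in isotype primary controls and from 48.1 to 76.9 CPM (median 58.1) after 20 Gy. All but 1 of the 8 irradiated tumours exceeded every control, and the log2 change was 0.53 ± 0.14 (edgeR adjusted p = 0.0101). Under anti-PD-1 it went from 27.9 to 53.4 CPM (median 44.5) to 42.3 to 82.7 CPM (median 61.2), a rise of 0.56 ± 0.14 (edgeR adjusted p = 0.0132) with 6 of 8 above the controls. This call was lost with only the 2 groups fitted (edgeR adjusted p = 0.0622). In allografts Tyk2 stood at 51.7, 42.8, 62.2 and 41.9 CPM and, after 20 Gy, at 60.4, 70.6, 77.6 and 84.4 CPM under isotype, and its estimates of 0.59 ± 0.18 and, under anti-PD-1, 0.46 ± 0.18 were not called (edgeR adjusted p = 0.0793 and 0.177), the first being past the threshold without the muscle-rich tumour (0.0312). An antisense gene, 1700084C06Rik, overlaps Tyk2 and reached at most 0.859 CPM. When both antibody arms were averaged in 1 contrast per tumour kind, Ifnar2, Jak2, Socs1, Stat2 and Tyk2 were called in the allografts, and these and Jak1 in the primary tumours. The same contrasts called 13.7% of all genes in allografts and 26.3% in primary tumours, in either direction (edgeR).

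Jak1, which serves both receptors and was the most abundant kinase per length, rose in only 1 of the 4 dose comparisons. In anti-PD-1 primary tumours it ranged from 181 to 254 CPM (median 225) at 0 Gy and from 247 to 318 CPM (median 279) at 20 Gy. There 6 of 8 irradiated tumours exceeded every control, and the log2 change was 0.33 ± 0.09 (edgeR adjusted p = 0.0247). This call was lost without 0 Gy replicate 6 or 20 Gy replicate 4 or 6 (edgeR adjusted p up to 0.0568), with no filter on low counts (0.0991) and without the 3 muscle-rich tumours of the primary fit (0.0684), where the Tyk2 call was also lost (0.0572). In isotype primary tumours Jak1 ranged from 193 to 235 CPM (median 214) at 0 Gy and from 172 to 273 CPM (median 210) at 20 Gy, with a log2 change of 0.07 ± 0.09 (edgeR adjusted p = 0.665). In allografts it stood at 165.6, 200.4, 229.5 and 141.2 CPM against 183, 214, 235 and 258 CPM under isotype, and at 195, 223, 234 and 203 CPM against 205, 233, 182 and 253 CPM under anti-PD-1. Those groups overlapped, with estimates of 0.30 ± 0.18 and 0.05 ± 0.18 (edgeR adjusted p = 0.400 and 0.917). Whether the radiation effect on Jak1 differed between antibody arms in primary tumours was tested directly, and the difference of 0.26 ± 0.13 was not called (edgeR adjusted p = 0.971). Raver2, on the opposite strand, overlaps Jak1 and reached at most 10.3 CPM.

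Stat2 showed the largest change of the 9 genes in each dose comparison. In isotype allografts it stood at 61.9, 59.8, 117.3 and 46.1 CPM without radiation and at 204, 207, 231 and 227 CPM after 20 Gy. The groups were far apart, and Stat2 rose 3.10-fold (log2 change 1.63 ± 0.28, edgeR adjusted p = 0.00398), a call kept without each of the 8 tumours in turn (log2 change 1.46 to 1.99). In isotype primary tumours the controls ranged from 40.2 to 215 CPM (median 65.4) and the irradiated tumours from 218 to 336 CPM (median 268). All 8 irradiated tumours exceeded all 8 controls, and Stat2 rose 3.32-fold (log2 change 1.73 ± 0.26, edgeR adjusted p = 7.37e-05). Under anti-PD-1 the primary controls ranged from 49.6 to 116.3 CPM (median 92.9) and the irradiated tumours from 111.9 to 328 CPM (median 245). There 7 of 8 irradiated tumours exceeded the controls, and the rise was 2.58-fold (log2 change 1.37 ± 0.26, edgeR adjusted p = 0.00163). In anti-PD-1 allografts Stat2 stood at 98.5, 119.3, 131.2 and 73.6 CPM at 0 Gy and 231, 148, 201 and 266 CPM at 20 Gy. These values did not overlap, but the log2 change of 1.02 ± 0.28 fell just short of the threshold (edgeR adjusted p = 0.0518), with DESeq2 (adjusted p = 0.0131) and the fit without the muscle-rich tumour (edgeR adjusted p = 0.0176) placing it past it. Without single tumours it was called in 2 of 8 fits (edgeR adjusted p = 0.0450 to 0.166). Among the 6 anti-PD-1 allografts whose identifier began with 5, the 3 controls had 73.6 to 131.2 CPM and the 3 irradiated tumours 148 to 266 CPM of Stat2, and 50.2 to 72.2 and 79.6 to 92.4 CPM of Ifnar2. In the order of all 8 group means, only the step from 105.7 CPM (0 Gy) to 211 CPM (20 Gy) exceeded the pooled SD of the neighbours compared.

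Socs1, the inhibitor, rose in irradiated primary tumours. Under isotype it ranged from 10.0 to 26.4 CPM (median 15.6) in controls and from 20.7 to 77.4 CPM (median 29.3) after 20 Gy, and 7 of 8 exceeded every control. The rise was 2.17-fold (log2 change 1.12 ± 0.26, edgeR adjusted p = 0.00418). Under anti-PD-1 it ranged from 14.6 to 25.2 CPM (median 18.0) in controls and from 14.2 to 61.7 CPM (median 37.1) after 20 Gy. There 5 of 8 irradiated tumours lay above every control and 1 lay below every control, and the log2 change was 0.87 ± 0.26 (edgeR adjusted p = 0.0346); this call was kept in 8 of the 16 fits without 1 tumour (edgeR adjusted p = 0.0103 to 0.0914) and lost with no filter on low counts (0.0589) or with only the 2 groups fitted (0.0529). In isotype allografts the values of 28.5, 24.8, 41.0 and 20.0 CPM at 0 Gy and 46.5, 58.4, 58.0 and 56.1 CPM at 20 Gy did not overlap, but the log2 change of 0.96 ± 0.31 was not called (edgeR adjusted p = 0.0877). It was past the threshold with DESeq2 (adjusted p = 0.0413), with only the 2 groups fitted (edgeR adjusted p = 0.0375) and without the muscle-rich tumour (0.0344). Under anti-PD-1, 46.1, 31.1, 53.0 and 42.4 CPM faced 82.5, 29.4, 65.8 and 94.9 CPM, with 1 irradiated tumour below every control and an estimate of 0.69 ± 0.30 (edgeR adjusted p = 0.228).

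The next question is what the antibody did. In the 4 comparisons of anti-PD-1 with isotype, at 0 or 20 Gy, in allografts or primary tumours, none of the 9 members and none of all genes tested (0%) were called (edgeR). At an unadjusted p under 0.05 the number of members was 0 in 3 of these comparisons and 2 in irradiated primary tumours, where 1443 of 17770 genes passed (edgeR). DESeq2 called 0 members in each comparison. The 2 members were Jak1 (log2 difference 0.33 ± 0.09, unadjusted p = 0.00126, edgeR adjusted p = 0.549) and Jak2 (0.28 ± 0.13, unadjusted p = 0.0415, edgeR adjusted p = 0.605). In unirradiated allografts all 9 estimates were positive, with the largest for Socs1 (0.58 ± 0.30) and Stat2 (0.56 ± 0.27), which had edgeR adjusted p-values of 1. The tests of whether the radiation effect differed between arms also called 0 of 9 members and 0% of all genes in either tumour kind (edgeR), with 0 members at an unadjusted p under 0.05 and 0 called by DESeq2. The largest such difference was that of Stat2 in allografts, −0.62 ± 0.39 (edgeR adjusted p = 0.864). The SEs of the antibody differences ran from 0.09 to 0.30 on the log2 scale, and estimates as large as the 0.58 of Socs1 were not called with these numbers of tumours.

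The combination of 20 Gy and anti-PD-1 was compared with untreated isotype tumours, which are also the controls of the isotype dose comparison. In allografts 4 of 9 members rose, against 7.43% of all genes, and in primary tumours 6 of 9 rose, against 8.78% of all genes (edgeR). Stat2 rose by 1.57 ± 0.28 and 1.45 ± 0.26 on the log2 scale in allografts and primary tumours (edgeR adjusted p = 0.00325 and 0.00045). Socs1 rose by 1.26 ± 0.31 and 1.01 ± 0.26 (edgeR adjusted p = 0.0171 and 0.00966) and Ifnar2 by 0.52 ± 0.12 and 0.56 ± 0.14 (edgeR adjusted p = 0.0109 and 0.00632). Of the kinases, Jak2 rose in both kinds, by 0.68 ± 0.18 and 0.72 ± 0.13 (edgeR adjusted p = 0.0233 and 0.000564). Tyk2 (0.58 ± 0.14, edgeR adjusted p = 0.00557) and Jak1 (0.39 ± 0.09, edgeR adjusted p = 0.00467) rose in primary tumours, while in allografts Tyk2 (0.56 ± 0.18) and Jak1 (0.25 ± 0.18) were not called (edgeR adjusted p = 0.0677 and 0.414). That allograft estimate of Tyk2 was past the threshold with DESeq2 (adjusted p = 0.0358) and without the muscle-rich tumour (edgeR adjusted p = 0.0297). All 8 primary tumours given the combination had more Jak1 than any untreated primary tumour. For Stat2 5 of 8 did, but all 8 (111.9 to 328 CPM) exceeded the other 7 controls (at most 98.99 CPM), since 1 control stood at 215 CPM. Leaving out 0 Gy isotype replicate 1 or 4 ended the allograft calls of Jak2 and Socs1, as did 20 Gy anti-PD-1 replicate 4 for Jak2 and 0 Gy isotype replicate 2 for Socs1. The allograft call of Ifnar2 was lost with all 48 tumours in the fit (edgeR adjusted p = 0.0685), and that of Socs1 with only the 2 groups fitted (0.0655). The gamma receptor chains and Ifnar1 were not called, with estimates of 0.11 to 0.42 (edgeR adjusted p = 0.0771 to 0.556), although DESeq2 called Ifngr2 in both kinds (adjusted p = 0.0429 and 0.0237).

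Primary tumours were then set against allografts under the same treatment, a comparison in which all allografts share 1 cell line and which cannot tell the kind of tumour from that line. Without radiation and under anti-PD-1, Socs1 was the 1 of 9 members called, lower in primary tumours, against 3.99% of all genes called lower. Its 4 allograft values, 31.1 to 53.0 CPM, lay above all 8 primary values, 14.6 to 25.2 CPM, and it was lower in the primary tumours by a log2 difference of −1.16 ± 0.18 (edgeR adjusted p = 0.00289). The same difference was −0.74 ± 0.26 at 0 Gy under isotype, −0.52 ± 0.29 at 20 Gy under isotype and −0.99 ± 0.38 at 20 Gy under anti-PD-1, none of them called (edgeR adjusted p = 0.0891, 0.336 and 0.216). In those 3 comparisons 0 of 9 members were called by edgeR, against 10.0%, 4.76% and 0.00566% of all genes. The members past an unadjusted p of 0.05 there numbered 1, 1 and 2 (edgeR), where 4526 of 17357, 3508 of 17624 and 2965 of 17674 genes passed. DESeq2 called 0 members in each. Interferon gamma and some of its targets were also lower in unirradiated primary tumours. Ifng stood at 2.75 ± 1.27 CPM in unirradiated anti-PD-1 allografts (n = 4) and 0.290 ± 0.243 in the matching primary tumours (n = 8), a log2 difference of −3.19 ± 0.59 (edgeR adjusted p = 0.00692), and at 1.09 ± 0.763 and 0.151 ± 0.157 CPM under isotype (−2.86 ± 0.70, edgeR adjusted p = 0.0227). Of 15 interferon gamma targets, 14 were lower in primary tumours at 0 Gy under anti-PD-1 (median −1.45) and 6 under isotype (median −1.23), while of 20 type I interferon targets 0 were called in either direction in these comparisons (medians −0.19 and 0.47; edgeR). At 20 Gy the Ifng differences of −1.43 ± 0.70 under isotype and −1.93 ± 0.96 under anti-PD-1 were not called (edgeR adjusted p = 0.278 and 0.332), and 1 and 0 of the 15 targets were called lower (medians −0.46 and −0.92). The summed level of 8 T cell markers was 77.9 to 246 CPM in those anti-PD-1 allografts and 30.3 to 133.5 CPM in the primary tumours, and its part in the Socs1 difference was not tested. Whether the effects of radiation or of the combination differed between tumour kinds was tested in a fit of all 48 tumours, and 0 of 9 members were called in the 3 interactions, against 0.00517%, 0% and 0% of all genes (edgeR), with 0 members at an unadjusted p under 0.05 and 0 called by DESeq2. For Stat2 the dose effect in primary tumours differed from that in allografts by 0.11 ± 0.41 under isotype and 0.35 ± 0.41 under anti-PD-1.

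The rest of the pathway was described from lists of genes, read against the same shares of all genes. All 20 type I interferon targets rose after 20 Gy in both allograft arms and in isotype primary tumours (edgeR). In anti-PD-1 primary tumours 19 of 20 rose. Median log2 changes were 2.59 and 1.95 in allografts (isotype and anti-PD-1) and 2.09 and 1.78 in primary tumours. In anti-PD-1 allografts the 20 calls rest on the fit of 4 groups. With only the 2 groups fitted, 1 gene in all was called there. Irf7, a transcription factor that drives interferon production, went from 147 ± 51.6 to 1264 ± 376 CPM in isotype allografts (n = 4 each; log2 change 3.12 ± 0.36, edgeR adjusted p = 0.000909) and from 199 ± 223 to 1095 ± 186 CPM in isotype primary tumours (n = 8 each; 2.47 ± 0.43, edgeR adjusted p = 0.000291). Oas2, which makes the activator of RNase L, rose by 2.33 ± 0.29 and 2.41 ± 0.36 there (edgeR adjusted p = 0.000909 and 6.77e-05). Of 15 interferon gamma targets, 6 rose in isotype and 0 in anti-PD-1 allografts, and 14 and 9 in the primary tumours (medians 1.20, 0.68, 2.07 and 1.40; edgeR). In the tests of whether dose effects differed between antibody arms or between tumour kinds, 0 of the 15 were called (edgeR). Cd274, which encodes the PD-1 ligand PD-L1, rose in irradiated primary tumours by 2.90 ± 0.42 under isotype and 2.28 ± 0.41 under anti-PD-1 (edgeR adjusted p = 5.63e-05 and 0.000986).

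Irf9, the DNA-binding partner of STAT2, moved with it. It rose in all 4 dose comparisons, by 1.17 ± 0.16 and 0.87 ± 0.16 in allografts (edgeR adjusted p = 0.00150 and 0.0114) and 1.04 ± 0.20 and 0.81 ± 0.20 in primary tumours (edgeR adjusted p = 0.000839 and 0.0131). The anti-PD-1 allograft call comes from the fit of 4 groups, since 1 gene in all was called with only the 2 groups fitted. Of the 9 JAK, STAT and IRF genes that are not members, 2 and 1 rose in allografts and 4 and 5 in primary tumours, and none fell. Jak3, the kinase of the common gamma chain of lymphoid cytokine receptors, rose by 0.74 ± 0.24 in isotype primary tumours (edgeR adjusted p = 0.0347). It was not called in anti-PD-1 primary tumours (0.34 ± 0.24, edgeR adjusted p = 0.412) or in allografts under isotype or anti-PD-1 (0.44 ± 0.18 in each, edgeR adjusted p = 0.195 and 0.177).

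Among 17 other negative regulators, 3 and 2 rose in allografts, and 3 and 5 in primary tumours, where 2 also fell under isotype, against 6.64% of all genes called lower there. Usp18, which removes ISG15 and blocks signalling at IFNAR2, rose in every dose comparison, by 2.83 ± 0.40, 1.97 ± 0.39, 1.90 ± 0.51 and 1.83 ± 0.51 (edgeR adjusted p = 0.00162, 0.0132, 0.0113 and 0.0241). Ptpn6, a phosphatase of blood cells, rose in each as well, by 1.45 ± 0.34, 1.30 ± 0.33, 1.14 ± 0.27 and 0.99 ± 0.27 (edgeR adjusted p = 0.0219, 0.0420, 0.00466 and 0.0211). The calls of Usp18 and Ptpn6 in anti-PD-1 allografts rest on the fit of 4 groups, since 1 gene in all was called with only the 2 groups fitted. Socs3, which restrains interleukin 6 and G-CSF signals, rose in anti-PD-1 primary tumours (1.35 ± 0.31, edgeR adjusted p = 0.00686), and Cish, a relative of Socs1, rose in isotype primary tumours (1.28 ± 0.34, edgeR adjusted p = 0.0114). In the other antibody arm the estimates were 0.87 ± 0.30 for Socs3 and 0.78 ± 0.34 for Cish (edgeR adjusted p = 0.0501 and 0.157), and 0 of the 17 genes were called in the test of whether dose effects differed between arms (edgeR). The genes that fell were Pias3, an inhibitor of STAT3, by −0.67 ± 0.17 and Pias2 by −0.30 ± 0.10 (edgeR adjusted p = 0.00789 and 0.0447; Pias2 was singled out after its value was seen). The list's median log2 changes were 0.34, 0.17, 0.09 and 0.17.

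Of 21 other cytokine receptor chains that signal through JAKs, 4 rose in each allograft arm and 9 and 8 in primary tumours (edgeR). The 4 calls in anti-PD-1 allografts also rest on the fit of 4 groups. There, 1 gene in all was called with only the 2 groups fitted. Il2rg, the common gamma chain, went from 9.51 ± 3.53 to 26.5 ± 12.01 CPM and Csf3r, the G-CSF receptor of neutrophils, from 20.0 ± 9.88 to 77.0 ± 52.6 CPM in isotype primary tumours (n = 8 each; edgeR adjusted p = 0.00174 and 0.00248). Il10ra, found mainly on leukocytes, went from 59.9 ± 15.0 to 150 ± 9.74 CPM in isotype allografts (n = 4 each; edgeR adjusted p = 0.00463). Il10rb, which lies between Ifnar2 and Ifnar1, rose in anti-PD-1 allografts by 0.69 ± 0.18 (edgeR adjusted p = 0.0492) and in primary tumours by 0.61 ± 0.16 under isotype and 0.53 ± 0.16 under anti-PD-1 (edgeR adjusted p = 0.00866 and 0.0348). Its estimate in isotype allografts, 0.44 ± 0.18, was not called (edgeR adjusted p = 0.215). Il11ra1, the interleukin 11 receptor, singled out as the 1 chain that fell, did so in anti-PD-1 primary tumours, by −0.80 ± 0.24 (edgeR adjusted p = 0.0350), where 1.86% of all genes were called lower. The Ptprc, macrophage, and neutrophil and monocyte values given beside Ifnar2 moved with these receptors too, and their part was not tested.

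How the members varied among tumours given the same treatment was examined in the 32 primary tumours, after each group's mean log2 CPM was subtracted. Each member was related to Ifng, to Ifit1 as a type I target and to Ptprc, 27 relations in all, with two-sided permutation tests of 100000 resamples within groups and Benjamini-Hochberg adjustment. On Pearson's r, 9 of 27 passed, and Ifnar1 with Ptprc passed on Spearman's rho alone (r = 0.44, permutation p = 0.0249, adjusted 0.0674; rho = 0.45, permutation p = 0.0179, adjusted 0.0483). Stat2 varied with Ifit1 (r = 0.76, permutation p = 4e-05, adjusted 0.00045; Spearman's rho = 0.73, permutation p = 3e-05, adjusted 0.00081), and r was 0.74 without the 2 tumours farthest from the median of Ifit1. Socs1 varied with Ifng (r = 0.73, permutation p = 5e-05, adjusted 0.00045; rho = 0.65, permutation p = 0.00046, adjusted 0.00324), with r = 0.71 without the farthest 2. Ifnar2 varied with Ptprc (r = 0.76, permutation p = 2e-05, adjusted 0.00045; rho = 0.70, permutation p = 0.00024, adjusted 0.00324), with r = 0.71 without the farthest 2. Ifng was scarce in the primary tumours, with group medians of 0.0688 to 0.615 CPM. The lowest tumour of each group stood at 0.0227 to 0.0681 CPM, where 3 counts amount to 0.0536 to 0.101 CPM. Relations with Ifng therefore include counting error at the low end. In the primary tumours Stat2, Socs1 and Ifnar2 each had their strongest relation with a different gene of the 3. In the 16 allografts, centred in the same way, these values of r were 0.53, 0.71 and 0.86. There the strongest value for Stat2 was not that with Ifit1, since r was 0.60 with Ptprc and 0.53 with Ifng. In the primary tumours Socs1 was not related to Ifit1 beyond the threshold (r = 0.15, permutation p = 0.460, adjusted 0.540; rho = 0.13, permutation p = 0.508, adjusted 0.552), nor Stat2 to Ifng (r = 0.32, permutation p = 0.0831, adjusted 0.160; rho = 0.23, permutation p = 0.215, adjusted 0.342); differences between these correlations were not tested.

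**Figure D4:**
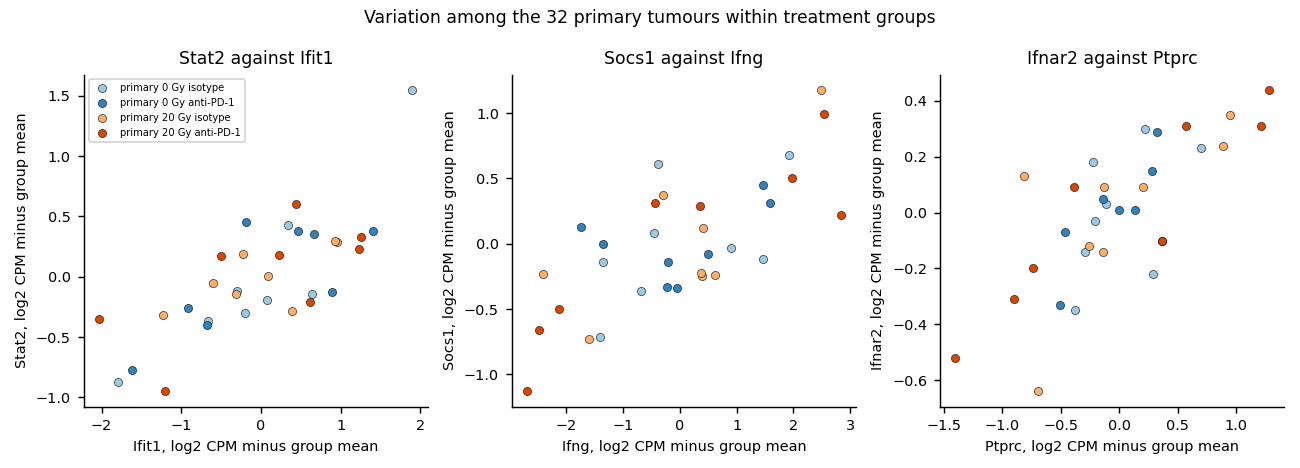
Log2 CPM after subtraction of the group mean in 32 primary tumours, for Stat2 against Ifit1 (r = 0.76), Socs1 against Ifng (r = 0.73) and Ifnar2 against Ptprc (r = 0.76). Each point is 1 tumour, marked by its treatment group, and for Ifng and Ptprc the lowest and highest values at the ends of the trend belong to irradiated tumours, which spread wider than the unirradiated ones. The lowest Ifng values of each group rest on a few reads per library.

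Tyk2 also varied with Ptprc (r = 0.66, permutation p = 0.0002, adjusted 0.00135; rho = 0.65, permutation p = 0.00048, adjusted 0.00324; r = 0.58 without the farthest 2 tumours), as did Ifngr1 (r = 0.64, permutation p = 0.00189, adjusted 0.00850; rho = 0.52, permutation p = 0.0118, adjusted 0.0353; r = 0.56). Socs1 was related to Ptprc as well (r = 0.57, permutation p = 0.00625, adjusted 0.0187; rho = 0.52, permutation p = 0.00909, adjusted 0.0307; r = 0.56). Relations with Ifng were found for Ifnar2 (r = 0.61, permutation p = 0.00164, adjusted 0.00850; rho = 0.56, permutation p = 0.00394, adjusted 0.0177; r = 0.53) and for Tyk2 (r = 0.52, permutation p = 0.00589, adjusted 0.0187; rho = 0.56, permutation p = 0.00275, adjusted 0.0148), where r of 0.44 without the farthest 2 tumours was no longer past the threshold. Tyk2 ran against Ifit1 (r = −0.50, permutation p = 0.00595, adjusted 0.0187; rho = −0.51, permutation p = 0.00615, adjusted 0.0237; r = −0.51), a relation that was 0.08 in allografts and turned to 0.26 in the primary tumours when group means were kept. Some receptors and kinases also varied with each other, such as Ifnar2 with Ifngr1 (r = 0.73 in primary tumours and 0.70 in allografts), Jak1 with Jak2 (0.64 and 0.71) and Ifnar1 with Tyk2 (0.62 and 0.66), given as descriptions without a test. Ifnar1 and Ifnar2, chains of one receptor, were related more loosely (0.41 and 0.22). Other pairs were weaker still or ran the other way, such as Ifngr1 with Ifngr2 (0.09 and 0.29), Ifnar2 with Jak1 (0.02 and 0.36) and Ifngr2 with Jak2 (−0.15 and −0.11).

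To place the members among all genes, the 3 genes with the most similar log2 levels over the 32 primary tumours were taken from 11672 candidates of at least 5 CPM, with the dose differences left in. For Stat2 they were Oas3, Zbp1 and Irf7 (r = 0.98 each), with 0.98, 0.96 and 0.94 in the 16 allografts. For Socs1 they were Irf1 (0.91), Igtp (0.89) and Batf2 (0.89), with 0.97, 0.93 and 0.95 in allografts. Irf1 and Igtp are interferon gamma targets in textbooks, and Igtp belongs to that list here. For Ifnar2 they were Snx20, Arhgap9 and Neurl3 (0.89, 0.89 and 0.88, and 0.95, 0.95 and 0.96 in allografts), and for Tyk2 Cyb561d1, Fes and Nod1 (0.91, 0.89 and 0.89, and 0.87, 0.92 and 0.89). The closest gene was less close for Jak2 (Susd6, 0.82), Ifngr1 (Tspan13, 0.81), Jak1 (Acvr1b, 0.78) and Ifngr2 (Rasa4, 0.71), and these had r of 0.77, 0.63, 0.80 and 0.76 in allografts. The tumours share the treatment groups and their cell mixtures, so these values describe likeness of pattern only.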

How the data were processed

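RNA of 48 tumours was sequenced from a stranded poly(A) library kit, per the labels' protocols. Per the submitters' processing notes, the authors used Trimmomatic 0.36, STAR and HTSeq with build mm10; the strand setting of the counting is not given in the sources used here. The deposited values are raw read counts per gene for 36854 genes, of which 36796 were named by GENCODE M21. Libraries of a group differed by far more than counting noise in all 136 pairs (chi-square over degrees of freedom from 85.6 to 995). Total counts were 31.8 to 54 M per tumour, so at the members' levels counting error is small beside the spread between tumours (biological coefficient of variation 0.375 in allografts and 0.5 in primary tumours). This does not hold for genes of a few reads, such as Ifng and Ifnb1. Each sample is labelled as its own tumour, but nothing says that mice were independent by litter or batch, and p-values measure the spread between these samples. Replicates were numbered in the order of deposit and pair nothing.

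Counts were tested with edgeR 4.0.16 (R 4.3.3): filterByExpr by group, TMM scaling, quasi-likelihood F test, Benjamini-Hochberg adjustment over all genes tested (17746 in allografts, 17770 in primary tumours, 19327 in the fit of all tumours), called at an adjusted p under 0.05. Standard errors (SE) of log2 changes were derived from the F statistic. Each tumour kind had its own fit of 4 groups, tumour kinds were compared in fits of the 2 groups concerned, and their interactions in 1 fit of all 48. Correlations used log2 CPM with a prior count of 1. DESeq2 1.42.0 and other settings were alternatives. The scripts were tested on simulated data. In counts simulated for the isotype dose comparisons, log2 changes of 0.5 were called for 0% of changed genes in allografts and 4.05% in primary tumours. Changes of 1 were called for 23% and 47.3%, and changes of 2 for 69.4% and 82%. The changed genes were drawn from all genes tested, so these shares are not those of the members. A member that was not called is not shown to be unchanged. Members and gene lists were chosen with earlier results of these data known. Named genes are the members, up to 4 called genes per list and dose comparison with the smallest p among those of at least 5 CPM, and the 3 genes most like each member. Ifng, the reference genes Ifit1 and Ptprc and genes overlapping a member are named outside this rule, as are genes marked in the text. Some genes that this rule selects are not reported here.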

Additional observations from a re-analysis of the deposited data

Results flagged for a closer look

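In 72 groups of values (9 members in 8 groups), 4 held a tumour that stood apart from its group by Dixon's test, where chance flags about 1 group in 20. Stat2 was highest in unirradiated isotype primary tumour replicate 4, at 215 CPM, where the other 7 had 40.2 to 98.99 CPM. Socs1 was highest in irradiated isotype primary tumour replicate 5, at 77.4 CPM, with the others at 20.7 to 44.3 CPM. Jak2 reached 93.3 CPM in unirradiated anti-PD-1 allograft replicate 3, above 62.3 to 67.3 CPM in the others. Ifnar1 was lowest in unirradiated anti-PD-1 primary tumour replicate 6, at 116.1 CPM, where the others had 149 to 167 CPM. The causes of these values were not tested.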

How the results depend on the processing

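No paired analysis was possible because the replicate numbers give only the order of deposit. The number of members called after 20 Gy in isotype allografts (2) became 4 with DESeq2, 3 with only the 2 groups fitted, 1 with no filter on low counts, with Xist as a covariate, with the identifier digit as a covariate or with all 48 tumours in the fit, 5 with the antibody arms averaged, and 4 without muscle-rich tumours (over 20000 CPM, a choice made after seeing the data). The share of all genes called there, in either direction, was 5.14% in the main fit and 4.47% with DESeq2. It was 2.82% with Xist, 1.10% with the identifier digit, 1.92% with all 48 tumours, 13.7% with arms averaged and 7.85% without muscle-rich tumours. In anti-PD-1 allografts (1) the number of members became 2 with DESeq2, 0 with no filter, with Xist as a covariate, with all 48 tumours or with only the 2 groups fitted, 5 with arms averaged and 2 without muscle-rich tumours. The share of all genes there was 3.96% in the main fit, 4.76% with DESeq2, 0.595% with all 48 tumours, 0.00590% with only the 2 groups and 13.7% with arms averaged. In anti-PD-1 primary tumours (5) the number of members became 3 with no filter, with only the 2 groups fitted or without muscle-rich tumours. The share of all genes there was 7.92% in the main fit, 4.94% with only the 2 groups and 4.48% without muscle-rich tumours. Between tumour kinds at 20 Gy under anti-PD-1 (0) the number of members became 1, Socs1, with all 48 tumours (edgeR adjusted p = 0.0349), where 6.77% of all genes were called. Leaving out single tumours gave 1 to 4, 0 to 2 and 2 to 5 members in allografts (isotype, anti-PD-1, combination), and 5, 3 to 5 and 6 to 7 in primary tumours. Over all alternatives, edgeR and DESeq2 adjusted p-values of Ifnar2 in isotype allografts included 0.00545 (DESeq2) and 0.195 (all 48 tumours). The correlation of Tyk2 with Ifit1 reversed to 0.26 when group means were kept. The causes were not tested.

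Counts of all genes called moved by over 1.5 times as follows. Isotype allografts (912): 1458 with DESeq2, 500 with Xist, 196 with the identifier digit, 372 with all 48 tumours, 2430 with arms averaged and 1415 without muscle-rich tumours. Anti-PD-1 allografts (703): 1552 with DESeq2, 0.595% of genes with all 48 tumours, 1 with only the 2 groups and 2430 with arms averaged. Combination in allografts (1714): 851 with all 48 tumours and 1075 with only the 2 groups. Isotype primary tumours (2575): 4680 with arms averaged. Anti-PD-1 primary tumours (1407): 2311 with DESeq2, 2156 with all 48 tumours, 822 with only the 2 groups, 4680 with arms averaged and 809 without muscle-rich tumours. Combination in primary tumours (2446): 1384 with only the 2 groups and 1527 without muscle-rich tumours. Antibody in primary tumours (0 at each dose): 3 at 0 Gy and 1 at 20 Gy with DESeq2. Between tumour kinds, DESeq2 gave 3012 against 1738, 2871 against 1560, 1935 against 839 and 1000 against 1 (0 Gy isotype, 0 Gy anti-PD-1, 20 Gy isotype, 20 Gy anti-PD-1), and the last was 2 with Xist, 1309 with all 48 tumours and 0.780% of genes without muscle-rich tumours. The interactions with tumour kind (1, 0 and 0) were 4, 2 and 4 with DESeq2, and the first was 0 with DESeq2's size factors, no filter, Xist or without muscle-rich tumours. Leaving out single tumours gave 294 to 1415, 184 to 1275 and 919 to 2320 genes in allografts (isotype, anti-PD-1, combination), 1706 to 3091, 896 to 1928 and 1761 to 3223 in primary tumours. Between tumour kinds single allografts, but no primary tumours, were left out, which gave 732 to 1204, 634 to 1436, 260 to 502 and 0 to 20 genes in the order above.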

Other observations

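Median count ratios of some members within each tumour differed between doses. The ratios were chosen after the values were seen and are given without a test. The median ratio of Socs1 to Stat2 counts was 0.425 and 0.436 in unirradiated allografts and 0.249 and 0.342 after 20 Gy (isotype and anti-PD-1), and 0.248 and 0.217 against 0.130 and 0.148 in primary tumours. The ranges at 0 and 20 Gy overlapped except in isotype allografts, while the median level of Socs1 itself was higher in each irradiated group. The median ratio of Tyk2 to Jak1 counts was 0.284 and 0.257 in unirradiated allografts and 0.330 and 0.319 after 20 Gy, and 0.194 and 0.184 against 0.283 and 0.222 in primary tumours. In isotype allografts the 4 irradiated ratios lay between 0.327 and 0.331, above all 4 controls (0.213 to 0.312), and the anti-PD-1 allografts did not overlap either, while the primary tumours did. The median ratio of Ifngr1 to Ifngr2 counts showed no common direction with dose, at 1.30 and 1.69 in unirradiated and 1.22 and 1.35 in irradiated allografts, and 1.15 and 1.33 against 1.30 and 1.19 in primary tumours, with overlapping ranges.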
